A study of Mus musculus with 3 samples.

Results

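A set of 10 genes of the epithelial barrier was followed through single-nucleus RNA-seq of the mouse cornea: 5 tight junction genes (Cldn1, Cldn4, Cldn7, Tjp1 and Ocln) and 5 desmosome genes (Dsp, Dsg2, Dsc2, Pkp1 and Perp). They were chosen by symbol, with earlier results of these data known, and matched by Ensembl ID. All 10 were found among the 30406 gene IDs present in all 3 libraries. Each library was a 10x Genomics 3' v3 preparation of nuclei pooled from the whole corneas of 5 mice aged 7 weeks. WT was untreated wild type, KO was untreated Aire knockout, and KO_PBS was Aire knockout given phosphate-buffered saline (PBS) for 14 days. Aire, the autoimmune regulator, switches on tissue antigens in thymic epithelium so that self-reactive T cells are removed, and its loss leads to autoimmune disease that includes dry eye. The strain, the sex and the route of the saline were not stated in the labels. The text of the series gives 6 weeks of age and day 7 of treatment in place of the ages and days on the sample labels, and it names a further arm treated with lacripep, which was not analysed here.

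Tight junctions seal the space between neighbouring epithelial cells near the apical surface: claudins and occludin are the membrane strands, and zonula occludens proteins tie them to actin. Desmosomes are spot welds that link the keratin filaments of neighbouring cells: desmogleins and desmocollins are cadherins that cross the gap, plakophilins sit behind them, and desmoplakin anchors the keratins. In the cornea, tight junctions lie in the outermost cell layer of the epithelium, while desmosomes join the cells of all its layers.

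The libraries held 96587 (WT), 107031 (KO) and 114357 (KO_PBS) barcodes, with 255925024, 351335206 and 177818671 unique molecular identifiers (UMIs) over the shared genes and a median of 2261, 2980 and 1432 UMIs per barcode. Pairs of libraries shared between 2833 and 3379 barcode sequences, 2.93% to 3.16% of the smaller library. The corneal keratin Krt12 was abundant in each, at 26121, 13793 and 6205 UMIs per 1000000 (CPM) across WT, KO and KO_PBS, so that the labelled tissue was checked by its defining marker, which was present in every library. Aire itself gave 15, 27 and 68 UMIs and did not check the genotype labels, since a few 3' tags say nothing about a deleted part. The libraries are therefore called by their labels. The KO_PBS library stood apart in markers of other tissues of the eye: the summed level of 8 lens markers was 484, 185 and 7466 CPM across WT, KO and KO_PBS, that of 8 melanocyte markers 503, 175 and 4317 CPM, and that of 7 photoreceptor markers 152, 63.4 and 1887 CPM. All of the markers matched in these 3 lists had UMIs in every library. There is 1 library per group, so no test between groups was possible. Intervals below are exact 95% Poisson intervals and cover counting error only, and a gene is called higher or lower in a pair of libraries by size alone: at least 50 UMIs over both, at least 2-fold apart, and intervals that do not overlap. In summed nuclei, fewer cells of a type and less RNA per cell cannot be told apart.

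Desmosome genes stood lower in the KO_PBS library than in the KO library while tight junction genes were split. Of the 5 desmosome genes, 4 were called lower in KO_PBS than in KO (Dsp, Dsc2, Pkp1 and Perp), and none of the 5 tight junction genes was called in either direction. None of the 4 was called when levels were scaled to 12 epithelial reference genes (log2 ratios of -0.75, -0.48, -0.38 and -0.36). Tjp1 was then called higher (1.07), where 13746 genes were called higher and 542 lower. Only Dsp and Dsc2 of the 4 were called in the 25% of barcodes with the fewest UMIs, where 983 genes were called lower. Centred on the median gene, Cldn4 (-1.39) and Cldn7 (-1.26) were called lower together with all 5 desmosome genes, where 2891 genes were called lower. At a fold of 1.5 without centring, Cldn4 (-0.76) and Cldn7 (-0.63) joined the 4 desmosome genes called lower, among 1925 genes. Without these changes, 4.7% of all 22416 genes compared in KO_PBS against KO were called lower and 39.9% higher. Against WT, the KO library had 1 called member, Cldn1, which was higher; the background was 20.6% called higher and 8.63% called lower of 20252 genes. The KO_PBS library against WT also had Cldn1 as its 1 called member, again higher, beside 57% higher and 4.06% lower of 22138 genes. Centred on the median gene, Cldn1 (0.86) was not called there and most members were called lower, among 5106 genes. Scaled to the epithelial reference genes, Tjp1 (1.79), Ocln (1.46) and Pkp1 (1.01) were called higher as well, among 19189 genes. These comparisons share libraries, so none is independent of the others. The median log2 ratio of all genes compared was 0.24 for KO against WT, 0.63 for KO_PBS against KO and 1.27 for KO_PBS against WT, and each member's ratio should be read against that shift.

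**Figure D1:**
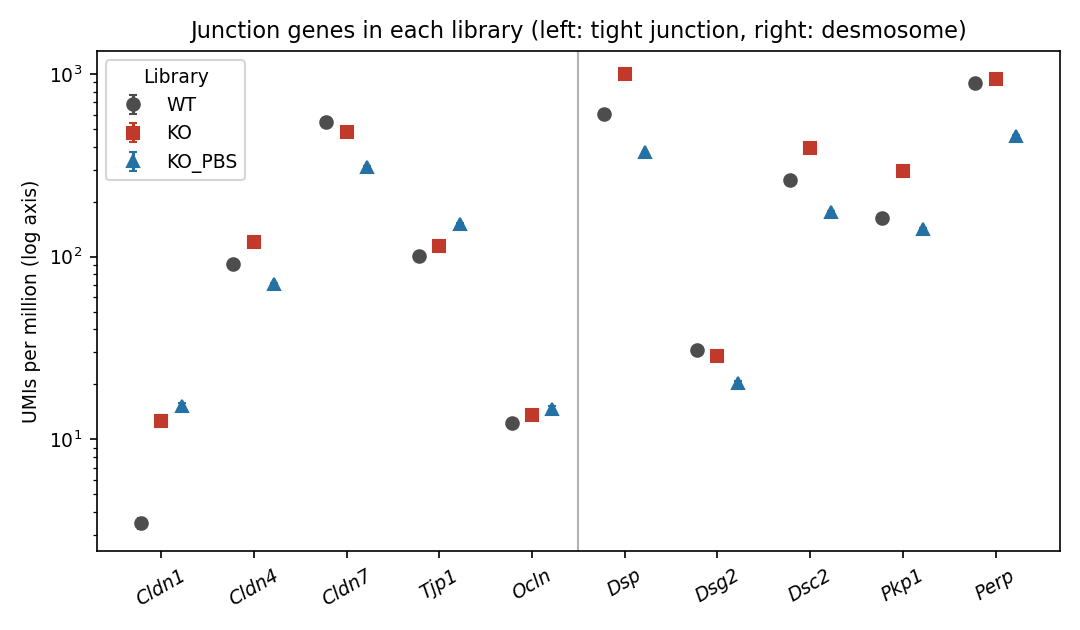
Level of each junction gene in the 3 libraries, in CPM on a log axis, with exact 95% Poisson intervals that are mostly smaller than the symbols. The 5 desmosome genes (right) are lowest in KO_PBS in CPM, and Cldn1 is lowest in WT. Under scaling to the epithelial reference genes the order of the desmosome genes against WT turned, and so did that of Dsg2 against KO.

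Among the claudins, the membrane strands that set which ions pass the seal, Cldn1 (chr16:26356642-26371841, minus strand, mm10) was at 3.47 CPM in WT (interval 3.25 to 3.71), 12.6 CPM in KO and 15.2 CPM in KO_PBS. WT was far below both knockout libraries, which were close to each other. The ratio was 3.63-fold for KO over WT (log2 1.86, interval 1.76 to 1.97) and 4.38-fold for KO_PBS over WT (log2 2.13). Centred on the median gene, the second came to 0.86 and was no longer called. Cldn4 (chr5:134945119-134946934, minus strand) was at 91.3 CPM in WT, 120 CPM in KO and 71 CPM in KO_PBS, highest in KO and lowest in KO_PBS, but the log2 ratio of KO_PBS against WT turned from -0.36 to 0.85 when levels were scaled to the epithelial reference genes. Cldn7 (chr11:69964779-69967885, plus strand), a claudin also found along the lateral membrane, was at 549 CPM in WT, 480 CPM in KO and 311 CPM in KO_PBS, a stepwise order that did not reach the 2-fold rule in any pair. Its log2 ratio was -0.63 for KO_PBS against KO and -0.82 for KO_PBS against WT, and these turned to 0.05 and 0.39 under the same scaling.

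Promoters of Cldn1, Cldn4 and Dsp are shown because these members had the largest KO to WT ratio, the largest difference between groups of barcodes (below) and the largest difference between KO_PBS and KO. RefSeq entries for GRCm38.p6 were used for 6 of the 10 members, and Dsg2 and Dsc2 were left out by rule. Each sequence is the 250 bases before a RefSeq gene start, 5′ to 3′ on the gene's strand. Capitals mark matches, on either strand, to 5 motifs: AP-1 (TGANTCA), a Grainyhead-like site (AACCNGTT), the GC box (GGGCGG), the E-box read by Snail and Zeb factors (CAGGTG) and TATAAA.
Cldn1, chr16:26371840-26372089, minus strand: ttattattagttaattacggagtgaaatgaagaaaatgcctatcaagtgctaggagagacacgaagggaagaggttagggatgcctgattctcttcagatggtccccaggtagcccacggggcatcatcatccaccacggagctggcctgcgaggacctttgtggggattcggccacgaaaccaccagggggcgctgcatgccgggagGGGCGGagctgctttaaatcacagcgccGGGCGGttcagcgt
Cldn4, chr5:134946935-134947184, minus strand: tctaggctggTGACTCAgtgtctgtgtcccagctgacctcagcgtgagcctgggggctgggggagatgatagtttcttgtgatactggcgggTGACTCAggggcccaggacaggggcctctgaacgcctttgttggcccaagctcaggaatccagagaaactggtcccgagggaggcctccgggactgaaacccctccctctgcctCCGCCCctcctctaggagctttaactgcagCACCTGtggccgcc
Dsp, chr13:38151044-38151293, plus strand: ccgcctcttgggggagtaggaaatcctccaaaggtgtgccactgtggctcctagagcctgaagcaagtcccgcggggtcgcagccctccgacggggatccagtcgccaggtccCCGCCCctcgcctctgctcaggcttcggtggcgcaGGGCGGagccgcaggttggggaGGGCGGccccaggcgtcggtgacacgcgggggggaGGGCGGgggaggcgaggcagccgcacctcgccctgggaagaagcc
Cldn4 held 2 matches to the AP-1 letters, 240 and 158 bases before the start, where 6.75% of 32851 promoters of this length hold at least 1. It also held 1 GC box and 1 E-box. Dsp held 4 GC boxes at a GC content of 72.4%, and Cldn1 held 2, where 32.7% of promoters hold at least 1. The E-box was in 17.2%, the Grainyhead-like letters in 1.79% and TATAAA in 12.4% of promoters. No TATAAA or Grainyhead-like match was found in the windows of these 3 genes. A match describes the letters and no binding was measured.

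Tjp1 (chr7:65296165-65527781, minus strand), which encodes the scaffold zonula occludens 1, was, like Cldn1 and Ocln, highest in KO_PBS, where every desmosome gene was lowest in CPM: 101 CPM in WT, 115 CPM in KO and 152 CPM in KO_PBS. The log2 ratio of Tjp1 was 0.19 for KO against WT, 0.40 for KO_PBS against KO and 0.58 for KO_PBS against WT, so KO_PBS was highest. Centred on the median gene these were -0.06, -0.24 and -0.69, but scaled to the epithelial reference genes they were 0.72, 1.07 and 1.79. Ocln (chr13:100496507-100552718, minus strand), which encodes occludin, was at 12.3, 13.7 and 14.6 CPM across WT, KO and KO_PBS. The intervals of KO (13.3 to 14.1) and KO_PBS (14.0 to 15.2) met. The interval of their log2 ratio was 0.03 to 0.16, so the order of those libraries was little beyond counting error. Centred on the median gene, the log2 ratio of KO_PBS against KO turned to -0.53 for Ocln and -0.36 for Cldn1.

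Dsp (chr13:38151294-38198577, plus strand), the desmoplakin that anchors keratin filaments, was at 603 CPM in WT, 1004 CPM in KO and 373 CPM in KO_PBS. KO was highest and KO_PBS lowest, but scaled to the epithelial reference genes the log2 ratio of KO_PBS against WT turned from -0.69 to 0.52. KO over WT was 1.66-fold (log2 0.74, interval 0.73 to 0.74), under the 2-fold rule, and KO over KO_PBS was 2.69-fold (log2 of KO_PBS over KO -1.43). Pkp1 (chr1:135871395-135919207, minus strand), a plakophilin that binds desmoplakin to the cadherins, had the same order, at 164, 296 and 143 CPM, with 1.81-fold for KO over WT and 2.07-fold for KO over KO_PBS. Its log2 ratio of KO_PBS against WT turned under the same scaling, from -0.20 to 1.01.

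The desmosomal cadherin Dsc2 (chr18:20030633-20059554, minus strand) was at 263 CPM in WT, 395 CPM in KO and 177 CPM in KO_PBS. KO was highest: its log2 ratio to WT was 0.59, under the 2-fold rule, and it exceeded KO_PBS 2.23-fold. Its partner Dsg2 (chr18:20558074-20604521, plus strand) was at 30.8, 28.5 and 20.3 CPM and was not called in any pair. An antisense gene, Gm16090, overlaps Dsg2 and had 88, 74 and 180 UMIs against 7879, 10020 and 3605 for Dsg2. How the deposited counting treated strand was not given in the sources used here. Perp (chr10:18845020-18857073, plus strand), a membrane protein of stratified epithelia required for desmosome assembly, was at 899, 941 and 459 CPM. WT and KO differed by 1.05-fold and KO_PBS was 2.05-fold below KO. Scaled to the epithelial reference genes, the log2 ratios of KO_PBS against WT turned to 0.64 for Dsc2, 0.61 for Dsg2 and 0.24 for Perp. That of Dsg2 in KO_PBS against KO turned as well, from -0.49 to 0.18.

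**Figure D2:**
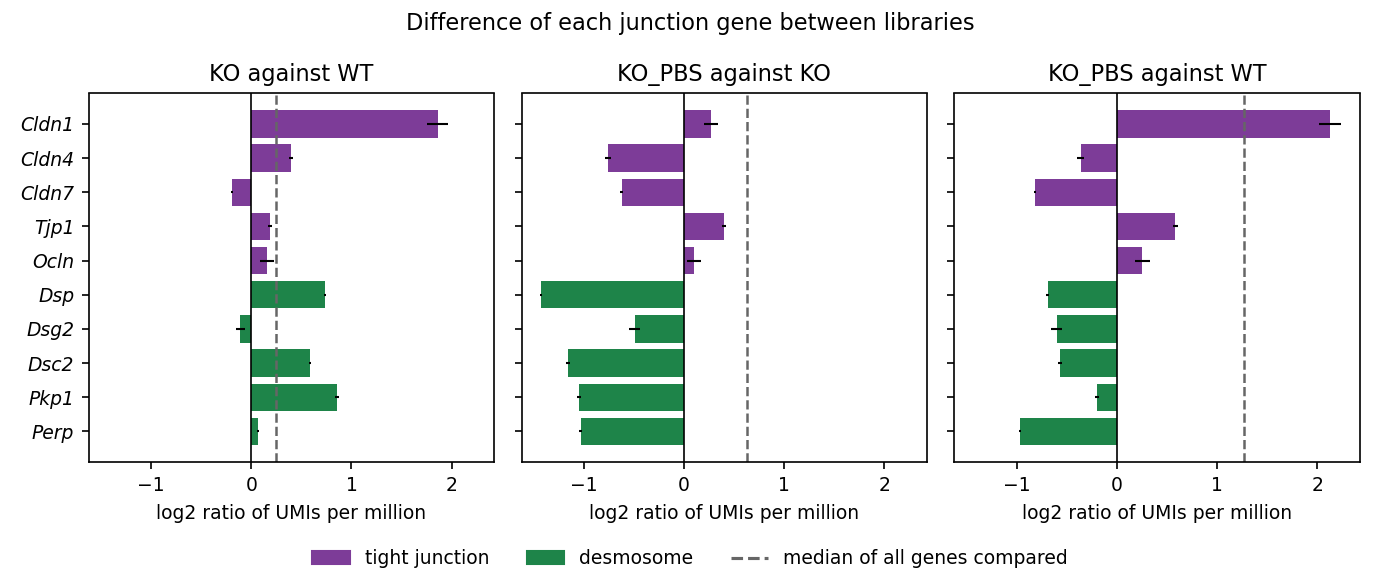
Log2 ratio of each junction gene for the 3 pairs of libraries, with 95% counting intervals as black lines. Dashed lines are the median of all genes compared, at 0.24, 0.63 and 1.27; all 10 genes lie to the left of it in KO_PBS against KO, with Dsp, Dsc2, Pkp1 and Perp the farthest.

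The 5 tight junction genes summed to 757, 742 and 563 CPM and the 5 desmosome genes to 1960, 2665 and 1172 CPM across WT, KO and KO_PBS. The ratio of desmosome to tight junction UMIs was highest in KO, at 3.59, with 2.59 in WT and 2.08 in KO_PBS. The median log2 ratio was 0.19 for tight junction and 0.59 for desmosome genes in KO against WT, 0.10 and -1.05 in KO_PBS against KO, and 0.25 and -0.60 in KO_PBS against WT. The tight junction median minus the desmosome median was -0.40, 1.15 and 0.85, a difference that a common rescaling of a library leaves as it is. The same medians centred on all genes were -0.06 and 0.34, -0.53 and -1.68, and -1.02 and -1.87. The tight junction median is the value of Tjp1 in KO against WT and of Ocln in both comparisons of KO_PBS. By summed UMIs, the tight junction and desmosome log2 ratios were -0.03 and 0.44, -0.40 and -1.18, and -0.43 and -0.74. In both comparisons of KO_PBS the tight junction sum was thus lower too, and by less. Gene length moved with the ratios as well: in KO_PBS against KO the median was 0.27 for genes of up to 4398 bases and 0.70 for genes of at least 35837 bases. Cldn4 (1816 bases) and Cldn7 (3107 bases), the tight junction genes lower in KO_PBS than in KO, were the only members that short. Cldn1 (15200 bases), Ocln (56212) and Tjp1 (231617) were longer, as were the desmosome genes, which were lower. The part of length in this split was not tested.

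The levels of other epithelial genes are given beside those of the members. Of 12 epithelial reference genes, 5 were called lower and none higher in KO_PBS against KO, beside 4.7% and 39.9% of all genes, with a median of -0.84. Krt5, the basal cell keratin, was at 8829, 6456 and 2164 CPM across WT, KO and KO_PBS, and Krt14, its partner, at 609, 1854 and 721 CPM. Corneal epithelium markers summed to 48814, 30537 and 25299 CPM, and basal epithelium markers to 12681, 10910 and 4257 CPM. In KO_PBS against KO the median log2 ratio was 0.06 for the 10 corneal markers (1 called higher, 1 lower). It was -1.16 for the 10 basal markers (0 higher, 6 lower) and 0.69 for the 9 conjunctival markers (3 higher, 1 lower). Among all genes, 39.9% were called higher and 4.7% lower. Markers of other tissues, given above, were higher in KO_PBS, together with those of the corneal endothelium, which summed to 585, 787 and 1848 CPM. Their part in the lower desmosome levels was not tested by these sums, and barcodes rich in each kind of marker are described next.

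Within a library, the variance of the more abundant members over barcodes was close to their mean. After every barcode was thinned to 1000 UMIs, which left out 265, 226 and 16860 shallower barcodes in WT, KO and KO_PBS, the variance over barcodes of the 6 members with a mean of at least 0.1 UMIs in every library (Cldn7, Tjp1, Dsp, Dsc2, Pkp1 and Perp) was 1.01 to 1.06 times the mean, where 1 is what counting alone gives. For the 4 rarer members this ratio is held near 1 by their low means and says nothing. It is also weak for Tjp1, Pkp1 and Dsc2, at means of 0.14, 0.14 and 0.17 UMIs in KO_PBS. A value near 1 at such means does not show that barcodes were alike. RNA free in the droplets adds UMIs of the members to barcodes of every kind, and its part in the levels below was not tested. To look for differences among barcodes, those whose summed markers of 1 class exceeded the library's own proportion by a score of at least 5 were grouped as marker-rich, a range of a score and not a cell type. No member is in a marker list. In WT and KO, the desmosome sum in such barcodes was 0.72 to 1.32 times that of the whole library in every class with at least 20 barcodes, lens, photoreceptor and corneal endothelium markers included. In KO_PBS the range was wider, 0.50 to 2.31.

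In the 124 barcodes of KO_PBS rich in corneal epithelium markers, the desmosome sum was 2713 CPM against 2975 CPM in those of KO, a log2 ratio of -0.13 (interval -0.23 to -0.04), where it was -1.18 over all barcodes. The genes differed among themselves. Dsp was at 602, 1003 and 966 CPM in the corneal epithelium-rich barcodes of WT (411 barcodes), KO (744) and KO_PBS. Between KO_PBS and KO the log2 ratio of Dsp was -0.05 (interval -0.22 to 0.11), against -1.43 over all barcodes. Dsc2 was at 269, 407 and 547 CPM and Pkp1 at 182, 331 and 405 CPM, with log2 ratios of KO_PBS against KO of 0.43 (0.20 to 0.65) and 0.29 (0.03 to 0.55). Perp alone of the 5 had an interval below 0, at 1187, 1209 and 754 CPM (log2 ratio -0.68, interval -0.87 to -0.50). Dsg2 was at 28.5, 25.3 and 41.4 CPM, with an interval that spanned 0. The median over the desmosome genes was 0.29 for KO_PBS against KO in these barcodes. That over the tight junction genes was 0.38, which is the value of Cldn1, from 4 UMIs in KO_PBS (interval -1.58 to 1.87). Among the tight junction genes, 2 intervals lay above 0 and 3 spanned 0. Of the 124 barcodes, 70 scored between 5 and 6, and a further 139 scored between 4 and 5. The median level of lens markers was 0 CPM in the same class of KO, beside 185 CPM over the KO library. In the 124 barcodes of KO_PBS it was 4329 CPM, beside 7466 CPM over the KO_PBS library. Their 10 leading genes by fold held no listed marker of any class and included the chemokine Cxcl2 and the stress gene Ppp1r15a. The classes are selected by score in each library and were not tested against each other.

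Barcodes of KO_PBS rich in markers of 4 other classes carried fewer desmosome UMIs, and lens-rich ones were near the library, at 1149 CPM in 215 barcodes. The desmosome sum was 693 CPM in the 440 corneal endothelium-rich barcodes, 592 CPM in the 172 melanocyte-rich barcodes, 629 CPM in the 74 rich in retinal pigment epithelium markers and 788 CPM in the 416 photoreceptor-rich barcodes, against 1172 CPM over the library. In the same kinds of barcode in KO the sum was 2127, 2554, 2518 and 2481 CPM. Barcodes rich in conjunctival epithelium markers (165 in KO_PBS, 71 in KO) lay between, at 1752 CPM in KO_PBS and 2849 CPM in KO. In those rich in stress or cornifying epithelium markers (24 in KO_PBS, 646 in KO), the median desmosome log2 ratio of KO_PBS against KO was -0.41. There 2 intervals lay below 0 and 3 spanned 0. Between KO and WT, in contrast, the log2 ratio of Dsp lay between 0.62 (melanocyte-rich) and 0.99 (retinal pigment epithelium-rich) in 8 of the classes compared, all but basal epithelium. The interval of each of these held the value of 0.74 over all barcodes. In basal epithelium-rich barcodes, whose WT set is doubtful for the reason given below, it was 1.04 (0.92 to 1.16), which does not hold that value. It was 0.74 in corneal epithelium-rich, 0.71 in keratocyte-rich, 0.80 in lens-rich and 0.95 in photoreceptor-rich barcodes.

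**Figure D3:**
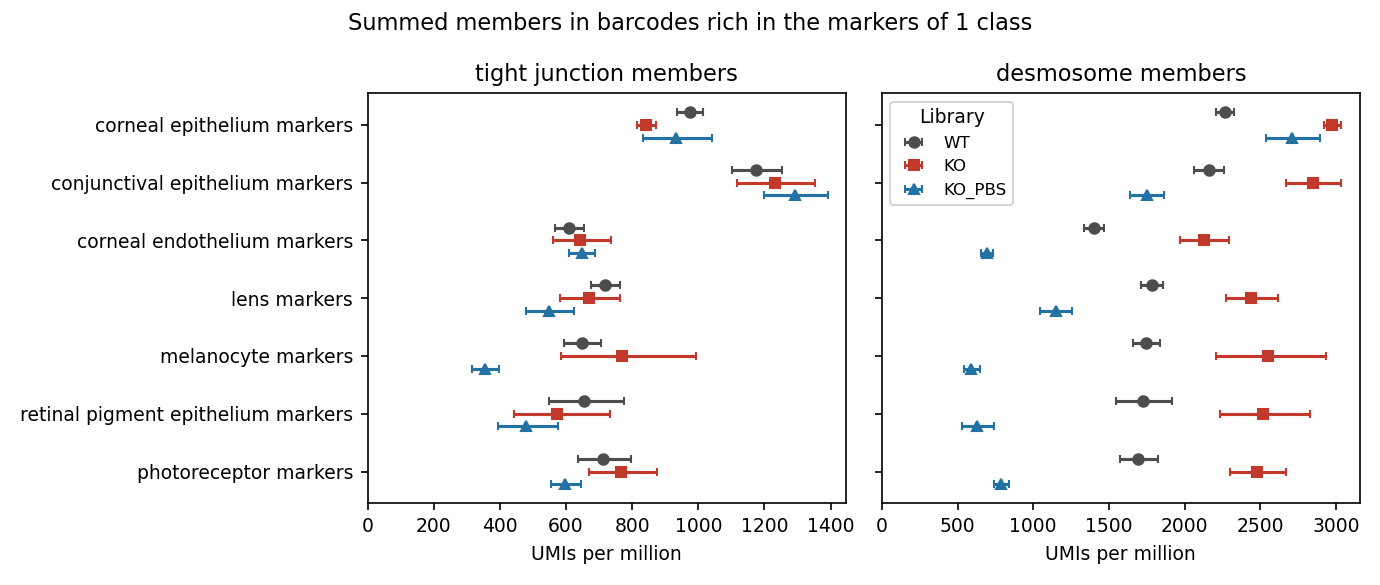
Summed tight junction members (left) and desmosome members (right), in CPM with 95% Poisson intervals, in barcodes rich in the markers of 1 class, by library. The desmosome sum of KO_PBS is at 2713 in corneal epithelium-rich barcodes. Conjunctival epithelium-rich barcodes lie below that, and the other plotted classes are at 592 to 1149.

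For basal epithelium-rich barcodes the levels are given for the knockout libraries, because in WT their 10 leading genes held more conjunctival markers (3) than basal ones (1). The desmosome sum was 2942 CPM in the 218 barcodes of KO and 2564 CPM in the 126 of KO_PBS. Dsp was at 1052 and 916 CPM there (log2 -0.20, interval -0.35 to -0.05), Dsc2 at 368 and 508 CPM, and Perp at 1101 and 658 CPM.

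Tight junction genes differed from each other only in part in where they stood high. Tjp1 was at 406 CPM in the corneal endothelium-rich barcodes of KO_PBS, 2.68 times the library (interval 2.48 to 2.89), with UMIs in 299 of 440 barcodes and at most 12 in any one. It was also at 414 CPM in conjunctival epithelium-rich barcodes and 337 CPM in photoreceptor-rich barcodes, and at 216 CPM in corneal epithelium-rich ones. In WT and KO the endothelium-rich level was 137 and 144 CPM. Cldn7 was also high in conjunctival epithelium-rich barcodes of KO_PBS, at 568 CPM, and at 508 CPM in corneal epithelium-rich ones. Its share was higher still in the 24 barcodes rich in stress and cornifying keratin markers, with 54 of 73773 UMIs. At 179 CPM in corneal endothelium-rich barcodes Cldn7 was below its library level of 311 CPM. Cldn4 reached 1301 CPM in the 24 barcodes of KO_PBS rich in stress and cornifying keratin markers, 18.3 times the library (14.9 to 22.4). Of the 96 UMIs behind that value, 24 came from 1 barcode, and 20 of the 24 barcodes had at least 1. In the 646 such barcodes of KO it was 216 CPM, 1.79 times the library. In KO_PBS the leading genes of these barcodes included Krt16, the stress response factor Atf3 and Areg, a ligand of the EGF receptor. Cldn1 was at 108 CPM in the 74 retinal pigment epithelium-rich barcodes of KO_PBS, 7.09 times the library (4.59 to 10.5), from 25 UMIs in 20 barcodes. It had no UMI in the corresponding barcodes of WT and KO, of which there were 54 and 28.

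**Figure D4:**
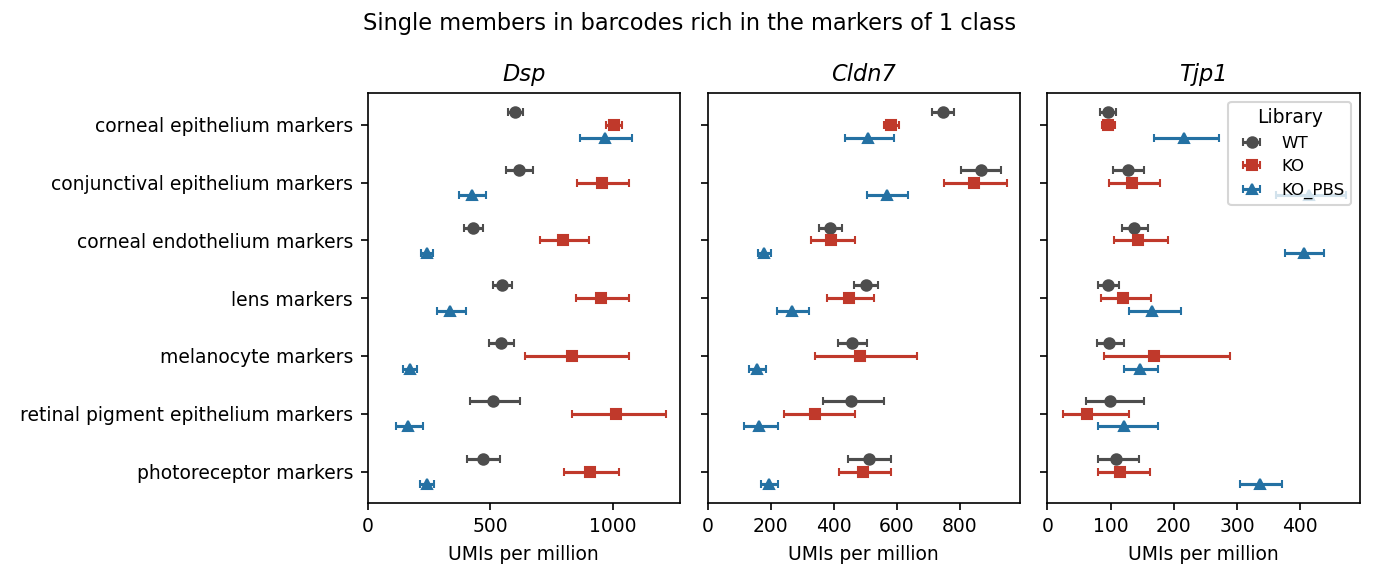
Dsp, Cldn7 and Tjp1 in barcodes rich in the markers of 1 class, in CPM with 95% Poisson intervals, by library. Among the classes plotted, in KO_PBS Dsp is highest in corneal epithelium-rich and Cldn7 in conjunctival epithelium-rich barcodes, and Tjp1 is at 414 in conjunctival epithelium-rich and 406 in corneal endothelium-rich barcodes.

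Over 24 points, 8 marker classes in 3 libraries, the members of each set were compared with the mean profile of the other 4 after each gene was centred within its library. Pearson's r was 0.60 to 0.94 for the desmosome genes, lowest for Dsg2. For the tight junction genes it was 0.73 for Cldn7, 0.57 for Cldn4, 0.47 for Ocln, 0.05 for Tjp1 and -0.05 for Cldn1. Among the 5 genes most like the desmosome profile, of 10278 ranked, were Aqp3, a water and glycerol channel (r 0.98), Ehf, an epithelial transcription factor and itself a listed corneal marker (0.95), Net1 (0.94) and Pkp3, another plakophilin (0.93). For the tight junction profile they were Nans (0.90), Psme2 (0.87), Cwh43 (0.87), Tmbim6 (0.86) and Dbnl (0.86). The basal epithelium-rich barcodes of WT, doubtful as described above, are among the points. Without that class in any library, an alternative added after seeing the data, r over 21 points was 0.52 to 0.92 for the desmosome genes, 0.11 for Tjp1 and -0.06 for Cldn1. Points share libraries and depth, and the values are descriptions.

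Other genes of the junctions were counted from lists. Of 12 other desmosome genes, 5 were called lower and 1 higher in KO_PBS against KO, beside 4.7% and 39.9% of all genes, with a median log2 ratio of -0.43. Dsg3, the desmoglein of basal layers, was at 104, 274 and 68.9 CPM across WT, KO and KO_PBS, high in KO alone, and was called higher in KO against WT. Dsc3 was at 331, 454 and 133 CPM. Dsg1b had 10.8 CPM in KO_PBS and 32.8 CPM in KO, but reads of Dsg1a, Dsg1b and Dsg1c, near-identical copies, may be split between them and their values are uncertain. Of 25 other tight junction genes, 7 were called higher and none lower in KO_PBS against KO, beside 39.9% and 4.7% of all genes (median 0.63, equal to that of all genes). They included Cldn5, the claudin of vessel walls, at 3.39, 2.89 and 20.3 CPM, Cldn10 at 64.4, 21.4 and 73.7 CPM, and the scaffold Mpdz at 8.39, 12.7 and 37.0 CPM. Vascular endothelium markers summed to 32, 74 and 169 CPM beside Cldn5, and their part in it was not tested. In KO against WT, 2 were higher and 2 lower (Cldn3, at 45.3 CPM in WT and 18.7 CPM in KO, and Cldn10), beside 20.6% and 8.63% of all genes.

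Adherens junctions, the cadherin belts below the tight junctions, had 2 of 11 genes called higher and none lower in KO against WT, beside 20.6% and 8.63% of all genes: Cdh1 (E-cadherin) was at 59.3 CPM in WT and 146 CPM in KO, and Cdh3 (P-cadherin) at 2.51 and 8.89 CPM. In KO_PBS against KO, 1 of 11 was higher (Nectin3, 57.9 against 5.75 CPM) and 1 lower (Nectin4, 28.1 against 67.2 CPM), beside 39.9% and 4.7% of all genes. Of 6 gap junction genes, the connexin Gjb2 was higher in KO than in WT (74.3 against 34.0 CPM), and Gja1 and Gjb6 were higher in KO_PBS than in KO (Gja1 277 against 136 CPM), where the shares of all genes called higher were 20.6% and 39.9%.

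Among 15 transcriptional regulators of junctions, 5 were called higher and none lower in KO against WT, beside 20.6% and 8.63% of all genes, and all 5 were repressors or mesenchymal factors: Zeb2 at 13.1 CPM in WT and 136 CPM in KO, Zeb1 at 13.9 and 43.5 CPM, Snai2 at 6.58 and 21.1 CPM, and also Snai1 and Twist1. Keratocyte markers summed to 1179 CPM in WT and 4011 CPM in KO and macrophage markers to 57.2 and 732 CPM, and the part of these cells in the count was not tested. In KO_PBS against KO, Grhl3, a regulator of epithelial differentiation, was called lower (10.9 against 28.5 CPM), and no gene of the list was called higher. Of 10 surface proteases and inhibitors, 4 were higher and none lower in KO against WT, beside 20.6% and 8.63% of all genes. They included Klk8 (11.4 CPM in KO against 2.45 CPM in WT) and Klk10 (12.5 against 3.16 CPM), members of the kallikrein family of serine proteases. The sheddase Adam10 was also among them (86.0 CPM in KO against 34.0 CPM in WT).

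**Figure D5:**
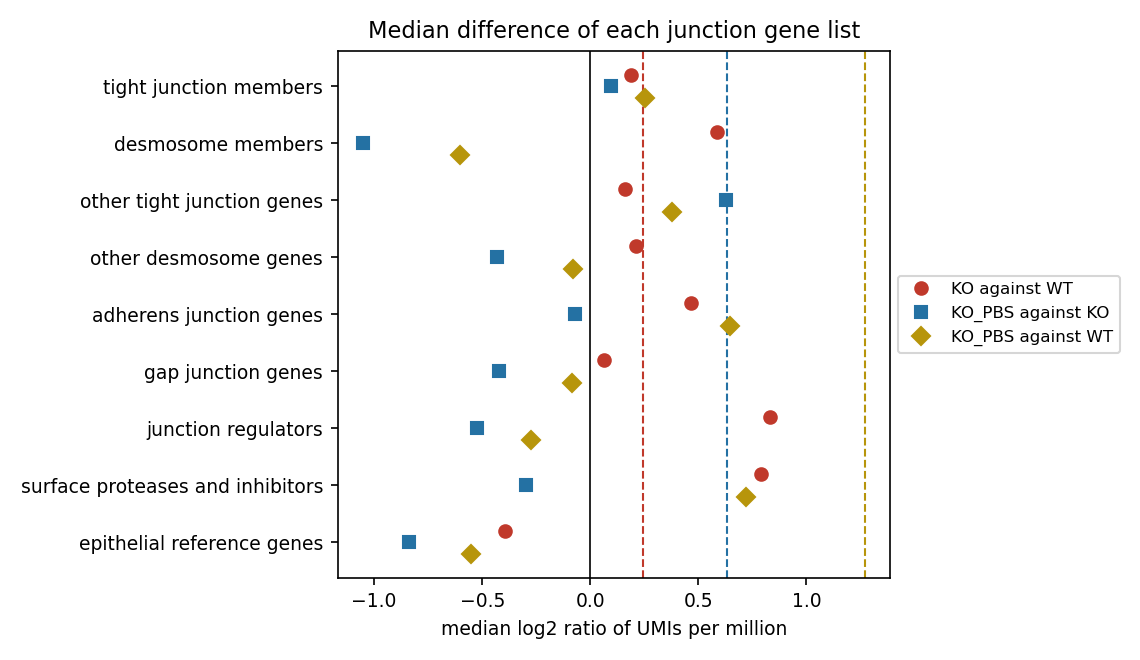
Median log2 ratio of each list of junction genes in the 3 comparisons, with dashed lines at the median of all genes compared (0.24, 0.63 and 1.27). The desmosome members have the lowest median in KO_PBS against KO, at -1.05, beside -0.84 for the epithelial reference genes.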

How the data were processed

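Nuclei of whole corneas were profiled in 3 libraries, WT, KO and KO_PBS, grouped by their sample labels. Counts are raw UMI counts per gene and barcode, deposited by the authors as matrices written by Cell Ranger 7.0.1, per the file headers and the submitters' processing notes, which also name build mm10. The annotation, the treatment of introns and strand, and the barcode filter were not given in the sources used here. The gene lists held 32285, 32285 and 31053 IDs; values use the 30406 found in all 3, which hold 99.3% to 99.6% of the UMIs, and 597 of these carry another symbol in KO_PBS.

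All deposited barcodes were summed per library and divided by the library's UMIs over shared genes (CPM). With 1 library per group no p-value was computed. The size rule is given in the report; counts under 3 were set to 3. Intervals are exact Poisson intervals at 95%, for counting error only. Marker-rich barcodes had z = 2(√observed − √expected) of at least 5, at least 3 markers seen and no other of 17 classes at 5; those passing for several classes (377, 258 and 166) were set aside. No doublet caller was run, and nuclei were not clustered. All 10 members are named; from each list the 3 genes with the largest ratio each way past the size rule and at least 5 CPM are named, and a few others were named after their values were seen (Krt5 and Krt14 in every library, Snai1, Twist1 and the counts of 5 or fewer). Some genes that this rule names are not reported here. The likeness used log2(CPM + 1), in genes with at least 1000 UMIs in every library. The members and lists were chosen with earlier results of these data known. Coordinates are from GENCODE for GRCm38 (mm10), which matched all of the shared IDs. The size rule was tested on simulated counts. Python 3.11.15, numpy 2.4.6, scipy 1.17.1 and pandas 2.3.3 were used.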

Additional observations from a re-analysis of the deposited data

How the results depend on the processing

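No paired analysis was possible because each group has 1 library, and for the same reason no library could be left out. Settings named here moved counts; the cause was not tested unless stated. Centring on the median gene gave, for KO_PBS against KO, 7 members lower and 2891 genes lower, and for KO_PBS against WT 0 members higher, 8 lower, 6558 genes higher and 5106 lower; the share of calls that were higher was then 53.3%, 69.8% and 56.2% in the 3 comparisons, against 70.4%, 89.5% and 93.3%. Centring within 4 classes of gene length gave a tight junction minus desmosome difference of -0.54 for KO against WT, 2862 genes lower for KO_PBS against KO, and for KO_PBS against WT 0 members higher, 7 lower, 6590 genes higher, 4849 lower and a difference of 1.09. The 25% of barcodes with the fewest UMIs gave 609 genes lower for KO against WT; for KO_PBS against KO 2 members lower (Dsp and Dsc2; Pkp1 was at -0.997 and Perp at -0.94), 4954 genes higher and a difference of 0.81; and for KO_PBS against WT 7627 genes higher. A mean over barcodes gave a difference of 1.07 for KO_PBS against KO. A fold of 1.5 gave, for KO against WT, 4 members higher, 7000 genes higher and 3202 lower. For KO_PBS against KO it gave 1925 genes lower, and Cldn4 (-0.76) and Cldn7 (-0.63) joined Dsp, Dsc2, Pkp1 and Perp among them. For KO_PBS against WT it gave 4 members lower and 1668 genes lower. Leaving mitochondrial, immunoglobulin, haemoglobin, crystallin and rRNA-like genes out of the total gave 1 member lower for KO_PBS against WT (Perp, -1.02). Scaling to the epithelial reference genes was added after seeing the data. The largest part of their sum was Krt12 in WT and KO and Aldh3a1 in KO_PBS (7739 CPM, beside 6205 CPM for Krt12). For KO against WT this scaling gave 4 members higher, 8181 genes higher and 770 lower. For KO_PBS against KO it gave 1 member higher (Tjp1, 1.07), 0 lower, 13746 genes higher and 542 lower. For KO_PBS against WT it gave 4 members higher, 19189 genes higher and 209 lower. Under that scaling Dsp, Dsc2, Pkp1 and Perp were at -0.75, -0.48, -0.38 and -0.36 in KO_PBS against KO. Over the settings that give a ratio, Dsp, Dsc2, Pkp1, Cldn1 and Cldn4 kept their sign in KO against WT, and Dsp, Dsc2, Pkp1, Perp and Cldn4 in KO_PBS against KO; in KO_PBS against WT only Cldn1 did. Filters on genes and mitochondrial share, and no UMI minimum, moved no member's call. A stricter class score of 8 moved 24 of the 50 member levels it gave in basal and corneal epithelium-rich barcodes; Dsp in corneal epithelium-rich barcodes of KO_PBS went from 966 to 1356 CPM, beside 1023 CPM in KO. Depth limits the rare members most: Cldn1 rests on 889 UMIs in WT.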
